A study of Homo sapiens with 6 samples.

Results

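Cells of an epithelium are held together by adherens junctions, desmosomes and tight junctions, and the genes of these junctions were followed here together with the transcription factors that are known to switch them off or on. Adherens junctions are built on cadherins, whose tails bind catenins. Desmosomes use desmosomal cadherins, which plakoglobin, plakophilins and desmoplakin tie to keratin filaments. Tight junctions seal the space between cells with claudins, occludin and related membrane proteins above a plaque of ZO proteins, and the PAR and Crumbs polarity proteins place them at the apical border. In epithelial-mesenchymal transition (EMT), factors of the ZEB, SNAI and TWIST families are known to repress junction genes such as CDH1, whereas ESRP1, ESRP2, GRHL2 and OVOL1 are known to keep epithelial programmes active.

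The members were 40 gene symbols, taken by name, from a list of junction and EMT genes, out of the 56638 symbols in the count files. The rule sets no threshold on a measured value, though the list was drawn up with earlier results of these data known. There were 29 genes of junctions and polarity, 5 EMT transcription factors (ZEB1, ZEB2, SNAI1, SNAI2 and TWIST1), the mesenchymal genes VIM and FN1, and 4 regulators of epithelial identity. Among these members, 34 had enough counts for a test and 6 (CDH2, DSC3, CLDN1, ZEB2, SNAI2 and TWIST1) did not.

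RNA sequencing covered 6 libraries of cultured human colorectal cancer cells, of which 3 carry the label control siRNA and 3 the label lncRNA-AF339830 siRNA. AF339830 is the long noncoding RNA that the study names GLCC1, and the second condition is called GLCC1 siRNA here. The labels name SW480 cells, with the genotype field of every library ending in siRNA1, whereas the methods of the study name DLD-1 cells, and which line was used was not tested. The library names attach each condition to the other siRNA, so each direction given here holds for the conditions of the sample titles and turns round under the library names. The titles of each condition end in siRNA1 to siRNA3, and these numbers are read as replicates here. The study lists different GLCC1 siRNAs, and whether the numbers name the siRNA was not tested. No label gives the time after transfection, and none says that the replicates came from separate cultures, so p-values measure the spread between these libraries, which may be technical.

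The read pairs assigned to genes numbered 11948790 in replicate 2 of GLCC1 siRNA, the smallest library, and up to 19042516 in the others. The same library had the largest share of read pairs on no annotated gene, 14.2%, where the other 5 had between 11.2% and 12.7%. Its counts also departed from its group, with a chi-square over its degrees of freedom of 16.3 and 17.1 against replicates 1 and 3. Replicates 1 and 3 of GLCC1 siRNA had 3.07 between them, and pairs of control libraries had 1.84 to 3.84. No symbol in the files names GLCC1 itself, so the knockdown could not be read directly. The GLCC1 insert that the study cloned matched chromosome 13, the only chromosome searched, between 99049526 and 99049907 (hg19), on the plus strand inside FARP1. FARP1 had 111 ± 2.13 CPM (counts scaled to library size by the TMM method and given per 1000000) in control and 64.8 ± 1.32 CPM in GLCC1 siRNA libraries (SD, n = 3 each, adjusted p 9.2e-06 in edgeR). The FARP1 count is not a reading of GLCC1, and whether the fall of FARP1 bears on the knockdown was not tested. Epithelial markers were present in every library, with EPCAM at 319 ± 8.46 CPM in control, and the summed level of 10 markers of colorectal epithelium was 5447 to 5935 CPM in control and 2243 to 2618 CPM in GLCC1 siRNA libraries. Of these 10 markers 5 fell, KRT8, KRT18, KRT19 and EPCAM among them, 1 (CDH17) rose and 4 did not pass the test. EPCAM was at 258 ± 44.7 CPM in GLCC1 siRNA libraries (adjusted p 0.045). CDX1 had 555, 748 and 673 raw counts in control and 404, 213 and 414 in GLCC1 siRNA libraries. The keratins make up most of the sum, while VIL1 was at 205 ± 6.53 CPM in control and 237 ± 16.9 CPM in GLCC1 siRNA libraries (adjusted p 0.067) and CDX2 at 94.6 ± 4.38 and 80.1 ± 5.71 CPM (adjusted p 0.055). The part of this change in the junction results was not tested. Fibroblast markers summed to 16.2 to 20.0 CPM in control and 11.1 to 13.7 CPM in GLCC1 siRNA libraries, with 4 of 9 (COL1A2, DCN, LUM and PDGFRA) at 0 throughout. The 4 endothelial markers summed to 0.542 to 1.03 CPM in control and 0.318 to 1.40 CPM in GLCC1 siRNA libraries, with PECAM1, KDR and CDH5 at 0 and VWF at 4 to 25 counts in each library. The 5 leukocyte markers summed to at most 0.391 CPM in any library, with PTPRC at 0.

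The junction genes among the members were mostly lower in the GLCC1 siRNA libraries. Among the 40 members, 15 fell, 3 rose, 16 did not pass the test and 6 were not tested, where a call is an adjusted p under 0.05 in the quasi-likelihood test of edgeR. The 3 members that rose were CLDN2, MARVELD2 and ZEB1. Over all 23074 genes tested, 16.7% fell and 14.9% rose, 31.6% together, whereas 44.1% of the tested members fell and 8.82% rose. Falls were more frequent among expressed genes in general, at 29.8% of the genes averaging 10 CPM or more (20.1% rose), and of the 28 members at that level 14 fell and 3 rose. The median log2 fold change of the tested members was -0.32, whereas that of all tested genes was 0.03. Normalization by library totals alone moved the median of all genes to 0.15 and that of the members to -0.20, where 15 members fell and 5 rose, and the calls of all genes were 4735 risen (20.5%) and 2797 fallen (12.1%) in place of 3429 and 3864. In bulk RNA, fewer cells of a type and less RNA per cell cannot be told apart.

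The levels separated by condition in 24 of the 34 tested members. All GLCC1 siRNA libraries were below all control libraries for 20 members, a pattern seen in 24% of all genes tested and in 37.8% of those averaging 10 CPM or more. For 4 members all GLCC1 siRNA libraries were above all control libraries, as for 22.3% of all genes. Falls of at least 2-fold were called for DSG2, CLDN3 and PARD6B, against 3.37% of all genes, and a rise of at least 2-fold for CLDN2, against 4.42%.

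**Figure D1:**
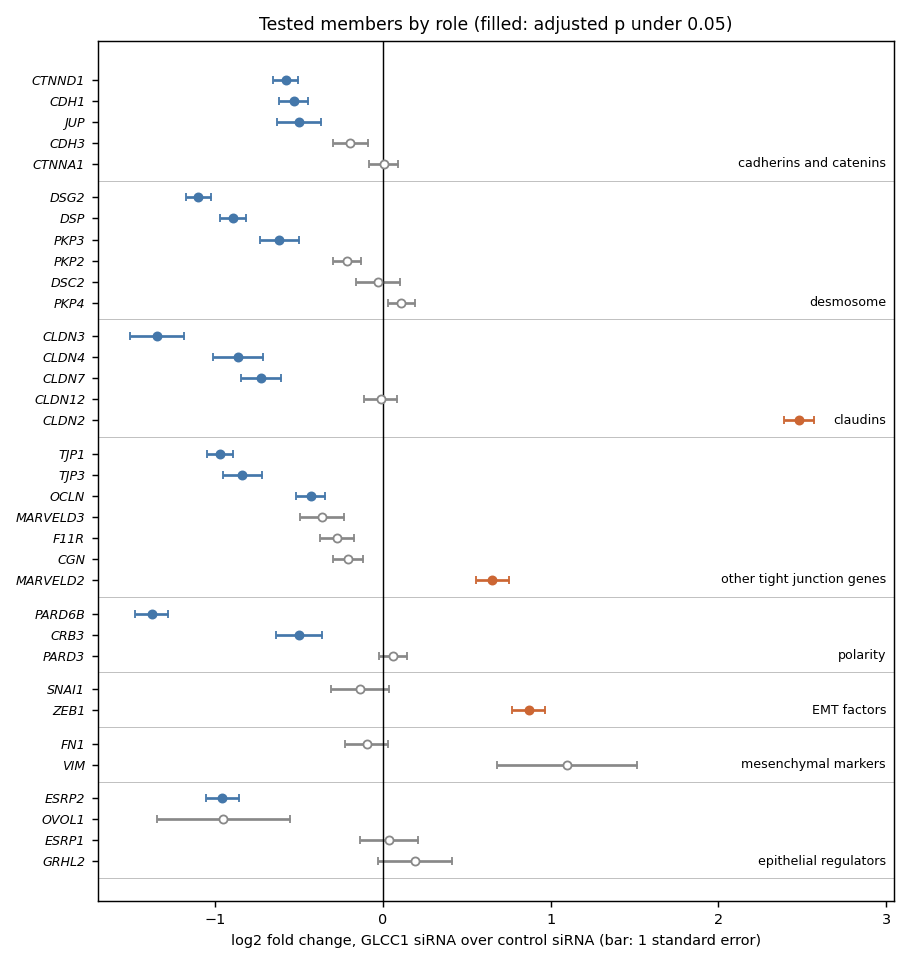
Log2 fold change of each tested member in GLCC1 siRNA over control siRNA libraries, with bars of 1 SE, in groups by role, and with filled points for members called. CLDN2 stands farthest to the right at 2.48, MARVELD2 and ZEB1 are the other members that rose, and PARD6B and CLDN3 lie farthest to the left among the members called.

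Among the 6 cadherins and catenins, CDH1, CTNND1 and JUP fell, CDH3 and CTNNA1 did not pass the test, and CDH2 was not tested. CDH1 encodes E-cadherin, the main adhesion receptor of epithelial cells, and lies on chromosome 16 from 68771195 to 68869440 (hg19, plus strand). Its level was 236, 268 and 234 CPM in the control libraries and 161, 174 and 175 CPM in the GLCC1 siRNA libraries. The conditions did not overlap, and CDH1 was 1.45-fold lower (log2 fold change -0.53, SE 0.08, adjusted p 3.0e-04). CTNND1, the p120 catenin that holds cadherins at the membrane, was at 373, 390 and 385 CPM in control and 257, 251 and 260 CPM in GLCC1 siRNA libraries. The spread within a condition was small beside this difference, with a log2 fold change of -0.58 (SE 0.07, adjusted p 4.7e-05). A same-strand gene without a symbol in the annotation covers 39.1% of the exon bases of CTNND1. The readthrough symbol TMX2-CTNND1 is in the count files with 0 counts in all 6 libraries, and whether it is that gene was not tested.

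Plakoglobin, encoded by JUP, is shared by adherens junctions and desmosomes. It was measured at 171, 201 and 182 CPM in control and 146, 98.1 and 148 CPM in GLCC1 siRNA libraries, with replicate 2 of GLCC1 siRNA far below its group. The log2 fold change was -0.50 (SE 0.13, adjusted p 0.011), and without replicate 2 of control it was -0.44 with an adjusted p of 0.066, so the call was lost (12.5% of all genes fell and 10.7% rose in that fit). CTNNA1, which links the cadherin complex to actin, differed by 0.00 on the log2 scale with a 95% interval from -0.17 to 0.18. CDH3, or P-cadherin, lies 9.823 kb from CDH1 and had 55.8 ± 5.24 CPM in control and 48.7 ± 4.43 CPM in GLCC1 siRNA libraries (SD, n = 3), with overlapping libraries and an adjusted p of 0.17. CDH2, or N-cadherin, which is known to replace E-cadherin in EMT, had 3 counts over all 6 libraries.

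**Figure D2:**
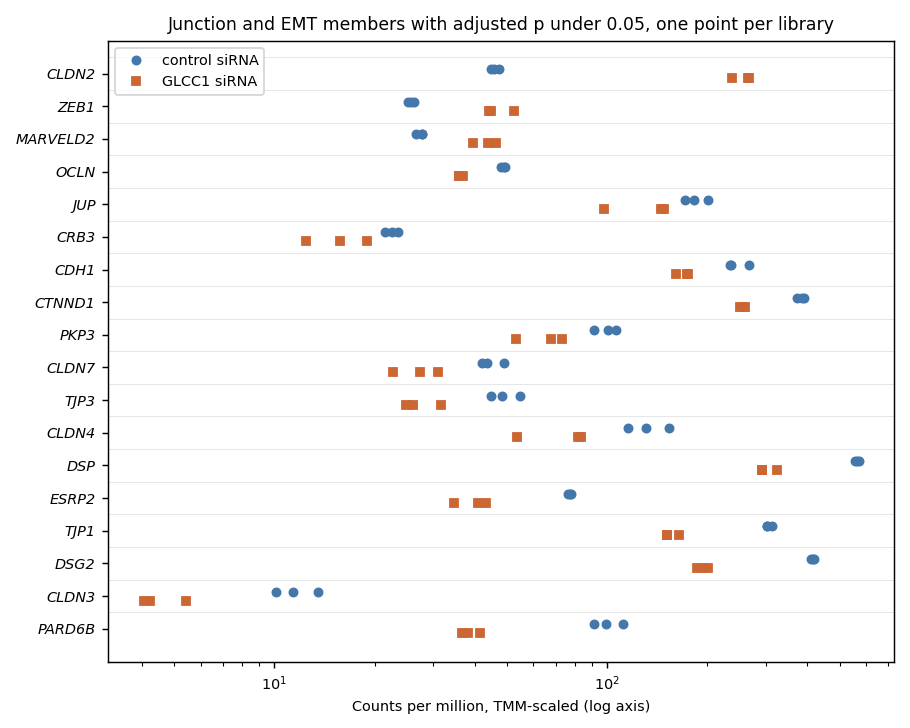
Level of the 18 members called, in each library, in TMM-scaled CPM on a log axis, with circles for control siRNA and squares for GLCC1 siRNA libraries. The conditions do not overlap for any member shown, with GLCC1 siRNA above control for CLDN2, ZEB1 and MARVELD2 and below it for the other 15.

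Among the 7 desmosomal members, DSG2, DSP and PKP3 fell, PKP2, PKP4 and DSC2 did not pass the test and DSC3 was not tested. DSG2 encodes the desmosomal cadherin of simple epithelia (chromosome 18, 29078140 to 29128971, plus strand). It was at 415, 411 and 418 CPM in control and 186, 201 and 193 CPM in GLCC1 siRNA libraries, 2.14-fold lower (log2 fold change -1.10, SE 0.08, adjusted p 2.6e-07). DSP, the desmoplakin that anchors keratin filaments (chromosome 6, 7541571 to 7586947, plus strand), was at 556, 570 and 564 CPM in control and 292, 325 and 293 CPM in GLCC1 siRNA libraries. Its fall of 1.86-fold (log2 fold change -0.89, SE 0.08, adjusted p 1.7e-06) left no overlap between the conditions. PKP3, a plakophilin of the desmosomal plaque, had 99.4 ± 7.64 CPM in control and 64.7 ± 10.3 CPM in GLCC1 siRNA libraries (SD, n = 3), with a log2 fold change of -0.62 (SE 0.11, adjusted p 0.0010).

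PKP2, another plakophilin, was lower in every GLCC1 siRNA library than in every control library, at 150.3 ± 5.78 against 130 ± 6.13 CPM (adjusted p 0.059). PKP4 was at 148 ± 3.44 and 159.8 ± 9.62 CPM (adjusted p 0.34). DSC2 held 43.8, 44.9 and 43.0 CPM in control and 37.5, 54.4 and 37.8 CPM in GLCC1 siRNA libraries, where replicate 2 of GLCC1 siRNA alone stood above control. DSC3 had 1 count in all. Within a library, the raw count of DSG2 was 9.15 to 9.72 times that of DSC2 in control and 3.70 to 5.11 times in GLCC1 siRNA libraries, which do not overlap.

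**Figure D3:**
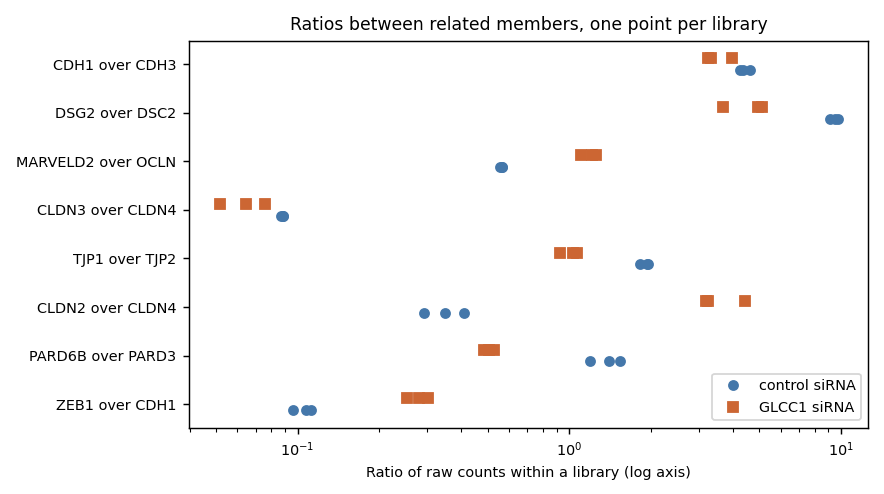
Ratio of raw counts of 2 genes within each library, on a log axis and with 8 pairs of genes, with circles for control siRNA and squares for GLCC1 siRNA libraries. The DSG2 to DSC2 ratio lies between 9.15 and 9.72 in control and between 3.70 and 5.11 in GLCC1 siRNA libraries, and the CLDN2 to CLDN4 ratio between 0.293 and 0.411 and between 3.20 and 4.43.

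Claudins form the strands of tight junctions, and CLDN2, a claudin known to form channels for cations and water, had the largest change of any member. It lies on chromosome X from 106143394 to 106174091 (plus strand) and was at 47.4, 44.9 and 45.6 CPM in control libraries and 265, 237 and 268 CPM in GLCC1 siRNA libraries. The 2 conditions were far apart, 5.59-fold (log2 fold change 2.48, SE 0.09, adjusted p 3.8e-09). A gene on the other strand, RIPPLY1, shares 9.99% of the exon bases of CLDN2. The strand setting of the counting is not stated, so whether reads in that overlap were counted for CLDN2 is not known. RIPPLY1 was at 0.060 to 0.40 CPM.

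CLDN3, CLDN4 and CLDN7, which are claudins that tighten the barrier, fell. CLDN3 had 10.1, 13.5 and 11.4 CPM in control and 4.22, 4.06 and 5.43 CPM in GLCC1 siRNA libraries, 2.55-fold lower (log2 fold change -1.35, SE 0.16, adjusted p 3.1e-05). CLDN4, at chromosome 7, 73213872 to 73247020 (plus strand), 29.271 kb from CLDN3, was at 115, 153 and 131 CPM in control and 81.7, 53.6 and 83.7 CPM in GLCC1 siRNA libraries. Both conditions varied more than for CLDN2, and the 1.82-fold fall was called at an adjusted p of 6.2e-04. CLDN7 had 45.0 ± 3.71 CPM in control and 27.1 ± 4.16 CPM in GLCC1 siRNA libraries (SD, n = 3), with a log2 fold change of -0.73 (SE 0.12, adjusted p 3.6e-04). CLDN12 differed by -0.01 on the log2 scale with a 95% interval from -0.21 to 0.18, and CLDN1 had 8 counts over all libraries and was not tested.

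Per length of merged exons, CLDN2 took 15.4% to 19.0% of the summed level of the 6 claudins in control and 64.1% to 66.7% in GLCC1 siRNA libraries, whereas CLDN4 took 33.5% to 38.2% and 10.9% to 14.7%. The share of CLDN3 was 10.9% to 12.4% in control and 2.80% to 3.48% in GLCC1 siRNA libraries. Among the tested members, CLDN2 moved from rank 16 to rank 1 in level per kilobase (13.5 to 75.2 CPM per kb), and DSG2 moved from rank 1 to rank 5 (43.7 to 20.4 CPM per kb). With the canonical transcript length, CLDN2 was 18th in control and 1st in GLCC1 siRNA libraries, and its share of the claudins was 9.14% to 11.6% and 49.7% to 53.2%. On that length CLDN4 took 49.2% to 54.5% in control and 21.0% to 27.4% in GLCC1 siRNA libraries, and CLDN3 took 5.77% to 6.40% and 1.88% to 2.34%. The shares of a library add up to the whole, so a higher share of one claudin lowers the others.

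**Figure D4:**
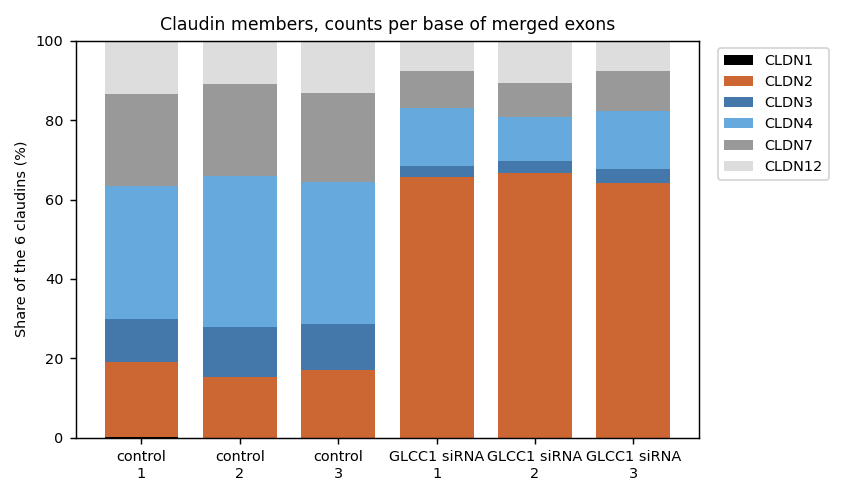
Share of the summed claudin level per kilobase of merged exons for each claudin, stacked in a bar for each library, in percent. CLDN2 takes 15.4% to 19.0% of the sum in the control libraries and 64.1% to 66.7% in the GLCC1 siRNA libraries.

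Other tight junction members were OCLN, TJP1, TJP3, F11R, MARVELD2, MARVELD3 and CGN. OCLN encodes occludin, and was at 49.2, 47.8 and 49.3 CPM in control and 35.8, 36.8 and 36.0 CPM in GLCC1 siRNA libraries (log2 fold change -0.43, SE 0.09, adjusted p 0.0018). TJP1, which encodes the plaque protein ZO-1 (chromosome 15, 29991571 to 30261118, minus strand), was at 302, 302 and 313 CPM and at 152, 164 and 151 CPM. Per length of merged exons it had the highest level of these 7 genes in both conditions, and it fell 1.96-fold (log2 fold change -0.97, SE 0.08, adjusted p 8.0e-07). TJP3, or ZO-3, was at 49.4 ± 5.02 and 27.6 ± 3.69 CPM (SD, n = 3), with an adjusted p of 9.9e-05. In contrast, MARVELD2, which encodes the tricellulin of cell corners and lies 47.961 kb from OCLN, was at 27.8, 26.7 and 27.8 CPM in control and 39.5, 46.3 and 43.7 CPM in GLCC1 siRNA libraries, 1.57-fold higher (adjusted p 1.7e-04). The raw count of MARVELD2 was 0.558 to 0.565 times that of OCLN in control and 1.10 to 1.26 times in GLCC1 siRNA libraries. F11R, MARVELD3 and CGN were below control in every GLCC1 siRNA library but had adjusted p values of 0.053, 0.053 and 0.089. For MARVELD3, PHLPP2 on the other strand covers 16.8% of its exon bases, and for F11R a same-strand gene covers 36.6%. MARVELD3 was at 11.7 ± 1.48 and 9.12 ± 0.490 CPM. PHLPP2 itself rose, from 43.3 ± 1.85 to 63.3 ± 3.25 CPM (SD, n = 3, adjusted p 3.8e-04). Whether reads in that overlap were counted for MARVELD3 is not known.

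Of 3 polarity genes, PARD6B and CRB3 fell and PARD3 did not pass the test. PARD6B, a partner of the atypical protein kinase C and PAR3 in tight junction assembly, lies on chromosome 20 from 49348117 to 49373332 (plus strand). Its level was 99.3, 111 and 91.1 CPM in control and 36.7, 41.4 and 38.1 CPM in GLCC1 siRNA libraries, 2.60-fold lower (log2 fold change -1.38, SE 0.10, adjusted p 4.1e-07). CRB3, the Crumbs protein of the apical membrane, was at 22.5 ± 1.01 CPM in control and 15.8 ± 3.27 CPM in GLCC1 siRNA libraries (SD, n = 3), with an adjusted p of 0.012 that became 0.061 without replicate 3 of control (12.5% of all genes fell and 10.5% rose in that fit). PARD3 was at 73.3 ± 2.94 and 76.3 ± 1.57 CPM, with a log2 fold change of 0.06 and a 95% interval from -0.10 to 0.22.

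Among the EMT transcription factors, ZEB1 rose and SNAI1 did not pass the test. ZEB1 is a zinc finger repressor known to bind CACCTG words at the CDH1 gene (chromosome 10, 31607424 to 31818742, plus strand). It was at 25.3, 25.8 and 26.3 CPM in control and 44.8, 52.7 and 44.1 CPM in GLCC1 siRNA libraries, 1.83-fold higher (log2 fold change 0.87, SE 0.10, adjusted p 2.2e-05). ZEB1-AS1 on the other strand covers 4.58% of the exon bases of ZEB1 and was itself at 8.78 to 9.64 and 10.6 to 12.8 CPM (adjusted p 0.039). SNAI1 was at 7.54, 9.26 and 9.70 CPM in control and 9.18, 5.81 and 8.84 CPM in GLCC1 siRNA libraries, which overlap (adjusted p 0.59). ZEB2 and TWIST1 had 0 counts and SNAI2 had 2, so in any library each was at or below the floor of 3 counts, which corresponds to 0.156 to 0.239 CPM. Of the mesenchymal genes, VIM had 57 counts in all and was at 0.411, 0.331 and 0.361 CPM in control and 0.574, 0.875 and 0.951 CPM in GLCC1 siRNA libraries (adjusted p 0.060), and all GLCC1 siRNA libraries were above all control libraries. VIM-AS1 on the other strand covers 12.7% of the exon bases of VIM and itself rose, from 0.394 ± 0.184 to 1.24 ± 0.535 CPM (SD, n = 3, log2 fold change 1.55, SE 0.44, adjusted p 0.016). Whether reads in the overlap were counted for VIM is not known. FN1 was at 11.7 ± 0.724 and 11.01 ± 1.40 CPM.

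Among the regulators of epithelial identity, ESRP2 fell. ESRP2 is a splicing factor of epithelial cells and was at 76.2, 77.8 and 77.5 CPM in control and 40.9, 34.6 and 43.4 CPM in GLCC1 siRNA libraries, 1.94-fold lower (log2 fold change -0.96, SE 0.10, adjusted p 8.5e-06). Its paralog ESRP1 was at 6.49 ± 0.929 and 6.74 ± 1.28 CPM, and GRHL2 at 2.45 ± 0.545 and 2.77 ± 0.308 CPM. OVOL1, with 74 counts in all, was lower in every GLCC1 siRNA library than in every control library (adjusted p 0.087).

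Promoters of members were read from RefSeq on GRCh38.p14, from 250 bases before to 50 after each start, and 24 of the 40 members had entries, with 44 promoters. CDH1 was among the members without an entry, so its promoter was not searched. The word CACCTG, searched on either strand and thus also as CAGGTG, was held by 13 of these 44 promoters (29.5%) and by 7231 of 35116 promoters of all genes (20.6%). The grainyhead word AACCNGTT was held by 1 of the members' promoters (2.27%), that of CGN, and by 606 of all (1.73%). A match is a description of the letters and shows no binding. The word was found in promoters of members that fell, of a member that rose and of DSC2, which was not called. Among members that fell, DSG2 and DSP held 2 words each, CRB3 held 5, 1 of the 2 listed promoters of CLDN7 held 5, 1 promoter each of JUP and OCLN held 2, and CLDN4 held none. CLDN3, the other promoter of OCLN and 1 promoter each of TJP1 and TJP3 held 1 word. Of the members that rose, ZEB1 had 3 words in 1 and 1 word in another of its 7 listed promoters, whereas CLDN2 and MARVELD2 held none. The promoters of DSG2, DSP, CLDN7, CRB3 and ZEB1 are shown as examples with at least 2 words, chosen after the search. They are given on the strand of the gene, with CACCTG and CAGGTG in capitals.
DSG2 (chr18:31497927-31498226, plus strand): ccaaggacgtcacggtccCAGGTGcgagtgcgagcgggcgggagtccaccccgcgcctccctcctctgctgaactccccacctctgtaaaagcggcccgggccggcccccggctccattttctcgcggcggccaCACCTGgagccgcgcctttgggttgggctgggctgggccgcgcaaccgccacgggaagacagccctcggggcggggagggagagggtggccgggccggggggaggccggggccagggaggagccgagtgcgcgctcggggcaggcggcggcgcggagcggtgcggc
DSP (chr6:7541421-7541720, plus strand): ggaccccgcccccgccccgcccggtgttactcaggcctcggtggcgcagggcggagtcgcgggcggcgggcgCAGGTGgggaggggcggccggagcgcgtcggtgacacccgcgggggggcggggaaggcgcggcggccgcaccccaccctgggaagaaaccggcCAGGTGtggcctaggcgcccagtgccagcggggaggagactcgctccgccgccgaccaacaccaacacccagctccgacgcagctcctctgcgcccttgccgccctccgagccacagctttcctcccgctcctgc
CLDN7 (chr17:7262429-7262728, minus strand): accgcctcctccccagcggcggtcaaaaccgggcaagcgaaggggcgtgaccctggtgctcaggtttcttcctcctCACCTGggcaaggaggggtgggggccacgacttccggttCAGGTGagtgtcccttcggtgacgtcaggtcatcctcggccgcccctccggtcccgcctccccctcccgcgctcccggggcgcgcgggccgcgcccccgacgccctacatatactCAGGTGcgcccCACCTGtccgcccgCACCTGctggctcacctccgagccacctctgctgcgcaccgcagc
CRB3 (chr19:6464021-6464320, plus strand): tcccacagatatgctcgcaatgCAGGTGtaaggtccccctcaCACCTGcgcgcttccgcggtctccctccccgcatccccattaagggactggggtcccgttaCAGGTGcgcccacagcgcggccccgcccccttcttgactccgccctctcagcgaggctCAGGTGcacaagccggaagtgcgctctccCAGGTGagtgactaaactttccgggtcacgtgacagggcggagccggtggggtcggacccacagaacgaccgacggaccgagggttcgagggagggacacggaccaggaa
ZEB1 (chr10:31318966-31319265, plus strand): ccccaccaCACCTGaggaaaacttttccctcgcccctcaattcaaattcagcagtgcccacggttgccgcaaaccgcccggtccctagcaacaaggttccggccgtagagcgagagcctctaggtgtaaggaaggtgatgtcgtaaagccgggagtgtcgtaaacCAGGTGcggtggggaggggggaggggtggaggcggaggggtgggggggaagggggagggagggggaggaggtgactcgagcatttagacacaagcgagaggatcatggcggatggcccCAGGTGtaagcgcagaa

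In the other lists of the pathway, 94 of 111 genes were tested, of which 15 rose and 31 fell, with a median log2 fold change of -0.16. By list, the median was 0.23 for adherens junctions and desmosomes, -0.11 for tight junctions and 0.006 for polarity. It was -0.24 for EMT and mesenchymal genes and -0.34 for epithelial identity genes. Among 18 tested genes of adherens junctions and desmosomes, 5 rose and 6 fell, and among those averaging 10 CPM or more the largest of each were PERP (73.1 to 155 CPM, log2 fold change 1.08, adjusted p 9.9e-06), a desmosomal membrane protein, and PPL (218 to 128 CPM, -0.77), the periplakin. Next in size were a rise of MLLT4 (170 to 266 CPM, 0.64) and a fall of ARVCF (41.7 to 28.4 CPM, -0.54). Tight junction genes were called in 7 of 25, with 2 risen and 5 fallen. Among those averaging 10 CPM or more, MAGI3 rose (34.7 to 49.1 CPM, 0.50). The largest falls there were INADL (58.7 to 39.7 CPM, -0.57) and AMOTL2 (69.1 to 54.0 CPM, -0.36). Polarity genes gave 2 rises and 1 fall in 12, among them PARD6G with 13.5 CPM in control and 20.4 CPM in GLCC1 siRNA libraries and LLGL2 with 144 and 96.7 CPM. Of 19 EMT and mesenchymal genes, 5 rose and 6 fell. Among those averaging 10 CPM or more, the largest rises were TCF4 at 5.26 and 25.2 CPM (2.26, adjusted p 8.7e-08) and TGFBR1 at 53.4 and 89.8 CPM (0.75). The largest falls at that level were COL1A1 at 13.4 and 7.38 CPM (-0.86, adjusted p 2.9e-04) and TGFBR2 at 362 and 226 CPM (-0.68, adjusted p 1.2e-05). The list of epithelial identity genes had 13 of 20 lower and 1 higher, with ELF3, an ETS factor, at 24.5 and 10.8 CPM and SPINT1, an inhibitor of membrane serine proteases, at 105 and 47.7 CPM. Over all genes tested, 14.9% rose and 16.7% fell.

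**Figure D5:**
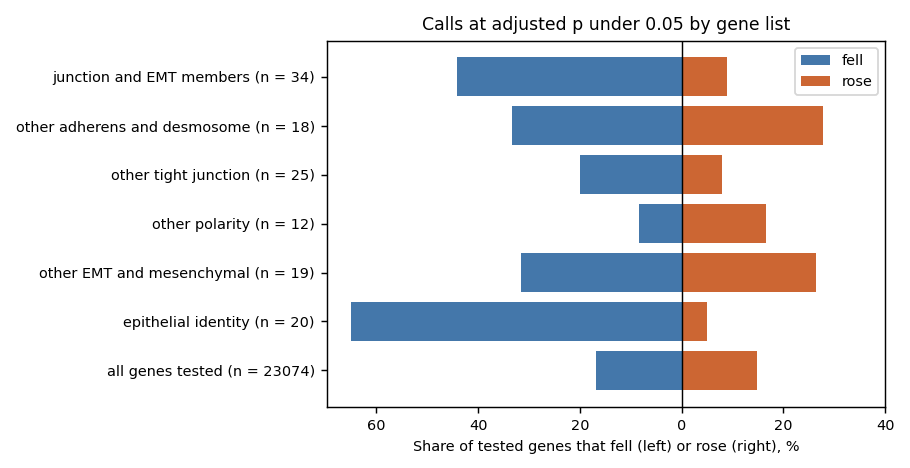
Share of the tested genes of each list, in percent, that fell (bars to the left) or rose (bars to the right), with all genes tested at the bottom. The members reach 44.1% fallen and 8.82% rose, where all genes have 16.7% and 14.9%.

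Replicate 2 of GLCC1 siRNA had the lowest depth and differed most from the rest of its group. Leaving it out raised the members called to 21 fallen and 4 risen, while 22.6% of all genes fell and 21.6% rose. PKP2, DSC2, F11R, MARVELD3, CGN and OVOL1 were added to the members that fell, and PKP4 to those that rose. In the 3 libraries of control and 2 of GLCC1 siRNA left, DSC2 was at 43.0 to 44.9 CPM and at 37.5 and 37.8 CPM.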

How the data were processed

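RNA from 6 libraries was measured by paired-end RNA sequencing, 3 for control siRNA and 3 for GLCC1 siRNA. The authors mapped reads to hg19 with TopHat (2.0.11 in the submitters' processing notes) and ran HTSeq in union mode for counting, and the deposited values are raw counts per gene symbol without normalization. Whether the counting used strand is not given in the sources used here. Read pairs left uncounted as ambiguous between genes made up 8.19% to 8.89% of a library. The members and all lists were chosen with earlier results of these data known.

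Libraries were grouped by their titles. A gene was dropped where neither condition reached a sum of 5 counts, which left 23074 of 56638. Counts were scaled by TMM factors and tested with the robust quasi-likelihood fit of edgeR 4.0.16 (R 4.3.3), two-sided, with Benjamini-Hochberg adjustment over all genes tested. The SE is the log2 fold change divided by the root of the F statistic. Intervals are 1.96 SE, the multiple of a normal distribution, and with 3 libraries per condition they cover less than 95%. An exact permutation test of 3 against 3 libraries cannot fall below 0.1. Counts on genes were between 11948790 and 19042516 per library. Counts for this comparison were simulated with 23072 genes, of which 200 averaging 10 CPM or more were changed 2-fold. In these counts edgeR recovered 200 and called 17 unchanged genes. Smaller changes and a larger share of changed genes were not simulated. No 2 libraries were copies, with a chi-square over its degrees of freedom of at least 1.84. Named genes were all members, FARP1, the cell type checks and, from each other list, up to 2 rises and 2 falls with the largest change among called genes that averaged 10 CPM or more and whose conditions did not overlap. Positions, lengths and overlaps are from GENCODE mapped to hg19, and promoters are from RefSeq on GRCh38.p14. Alternatives were DESeq2 1.42.0, DESeq2 size factors, library totals, other count filters, no robust option, the replicate block, grouping by the library names and leaving out each library.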

Additional observations from a re-analysis of the deposited data

How the results depend on the processing

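The members risen and fallen were 3 and 15 with DESeq2, with DESeq2 size factors in edgeR and without the robust option. With library totals alone, members risen were 5 and the median log2 fold change was -0.20. The added rises were PKP4 and VIM (adjusted p 0.041 and 0.038 in edgeR). VIM was also called without replicate 1 of GLCC1 siRNA (log2 fold change 1.31, adjusted p 0.045), so its call depends on the setting. Under the conditions of the library names every direction turned round, so 15 members rose and 3 fell with a median of 0.32, and 31 other junction and EMT genes rose and 15 fell. With library totals alone, DSC2, CLDN12 and FN1 turned to 0.094, 0.11 and 0.026 on the log2 scale. With at least 10 counts in every library, DSC2 and CLDN12 turned to 0.0098 and 0.025. None of these genes had been called. With each library left out in turn, members fallen ranged from 14 to 21 and members risen from 3 to 4, the median from -0.36 to -0.28, other genes fallen from 21 to 38 and other genes risen from 12 to 19. In these fits CTNNA1 lay between -0.019 and 0.050, DSC2 between -0.22 and 0.068, CLDN12 between -0.10 and 0.047, SNAI1 between -0.25 and 0.026 and ESRP1 between -0.047 and 0.20. JUP was no longer called without replicate 2 of control, nor CRB3 without replicate 3 of control, and the causes of these changes were not tested.

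Same-numbered libraries did not deviate together, with correlations from -0.32 to -0.013 (mean -0.17). Differently numbered libraries had a mean of 0.085, which is tied to that value because deviations were taken from the mean of each condition. The check therefore cannot exclude that the numbers pair the samples. With the replicate block, 15 members fell and 3 rose, 29 other genes fell and 15 rose, and the median was -0.32.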

Other observations

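Some genes of the wider lists, chosen after their values were seen, had large differences. GRHL3, a grainyhead-like factor of epithelia, was at 10.6, 12.4 and 11.9 CPM in control and 2.66, 1.99 and 3.52 CPM in GLCC1 siRNA libraries (log2 fold change -2.06, adjusted p 2.1e-06 in edgeR). CLDN6 was at 5.01, 4.52 and 5.54 CPM in control and 0.261, 0.954 and 0.727 CPM in GLCC1 siRNA libraries (log2 fold change -3.02, adjusted p 6.3e-06). Both genes had no overlap between the conditions. The membrane serine proteases ST14 and PRSS8 fell by 0.73 and 0.86 on the log2 scale, and their inhibitors SPINT1 and SPINT2 fell by 1.13 and 0.37. Of the TGF-beta pathway, TGFBR1 rose (0.75), whereas TGFBR2, SMAD3 and TGFB1 fell by 0.68, 0.65 and 0.39. SMAD2, SMAD4, TGFB2 and TGFBI of the same list were not called (adjusted p 0.18, 0.077, 0.22 and 0.18 in edgeR). The E protein genes TCF3 and TCF4 rose by 0.70 and 2.26 on the log2 scale. CTNNB1, which encodes beta-catenin, had a log2 fold change of -0.19 (adjusted p 0.069).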
